A study of Mus musculus with 2 samples.

Results

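The nuclei described here are glutamatergic nuclei of the mouse preoptic area (POA) that carried transcripts of both Skor2 and Tmem163. They were chosen by their own counts: a nucleus was a member when it held at least 1 unique molecular identifier (UMI, 1 captured mRNA molecule) of Slc17a6, at least 1 of Skor2 and at least 2 of Tmem163. This rule picked 91 members, 48 from the US+ library and 43 from the US- library. They stood among 3211 Slc17a6-positive nuclei (1810 US+, 1401 US-) and 20952 nuclei that passed the filters (9912 US+, 11040 US-).

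US+ nuclei came from wild-type mice of 6 to 9 weeks whose POA received ultrasound about 1 h earlier, and US- nuclei came from wild-type sham mice of the same age range. Each group was 1 library, made from the POA of 4 pooled mice. Nuclei had been sorted on NeuN, which marks neurons. With 1 library a group, no difference had a replicate check, so no p-value is given and a ratio of US+ over US- compares these libraries, not the conditions. Intervals are exact 95% intervals and cover counting error only.

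Slc17a6 encodes the vesicular glutamate transporter VGLUT2, which loads glutamate into synaptic vesicles in most hypothalamic excitatory neurons. Skor2 encodes a nuclear corepressor of the SKI family, best known from developing cerebellar Purkinje cells, and Tmem163 encodes a zinc transporter of vesicle and plasma membranes. Calcr and Gldn had been given as further markers of these nuclei. Calcr is the calcitonin receptor, a G protein-coupled receptor of mouse preoptic neurons that take part in parental behaviour, and Gldn is gliomedin, an adhesion protein known from the assembly of nodes of Ranvier in peripheral nerve. In the GENCODE M21 annotation of GRCm38, Skor2 lies on chromosome 18 (76856405 to 76900342), Tmem163 on chromosome 1 (127486546 to 127679548) and Slc17a6 on chromosome 7 (51622006 to 51671119). Calcr lies on chromosome 6 (3685680 to 3764714) and Gldn on chromosome 9 (54286486 to 54341786).

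Both libraries were sequenced to a similar depth, with 95029281 UMIs over 12075 barcodes in US+ and 101948623 UMIs over 11725 barcodes in US-. Members held 642549 UMIs in US+ and 478761 in US-, so that 1 UMI was worth 1.56 and 2.09 CPM (counts per 1000000 UMIs of the group). The median member had 9846 UMIs in US+ and 10035 in US-, against 8760 and 8827 for the other Slc17a6-positive nuclei. The libraries shared 29 barcodes, and 0 of them was a member. Xist was seen in 48 of 48 US+ members and 42 of 43 US- members, while 4 Y-linked genes together had 0 and 2 UMIs.

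Members made up 2.65% (1.96 to 3.50) of the Slc17a6-positive nuclei in US+ and 3.07% (2.23 to 4.11) in US-, so the intervals overlapped. As a share of all nuclei that passed, they were 0.484% (0.357 to 0.642) in US+ and 0.390% (0.282 to 0.524) in US-. The rule leaned on depth: after each nucleus was thinned at random to 2000 UMIs, it picked 2 of 585 Slc17a6-positive nuclei in US+ and 3 of 470 in US-.

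The values that chose the members are given as a description. Skor2 was at 1 UMI in 45 members and at 2 or more in 46, with up to 7 in a nucleus. It was a rare transcript: 226 of all nuclei that passed held it, with 380 UMIs in all, of which 178 were in the members. Tmem163 was at 2 UMIs in 21 members and higher in 70, with up to 13. It was no rare transcript, since 3388 nuclei that passed held at least 2 UMIs of it.

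Just outside the rule stood 15 Slc17a6-positive nuclei with Skor2 and 1 UMI of Tmem163, and 10 with Skor2 and no Tmem163. Another 68 nuclei met the Skor2 and Tmem163 limits but had no Slc17a6 UMI, and 1377 Slc17a6-positive nuclei met the Tmem163 limit but had no Skor2. Calcr was at 148 CPM (90.6 to 229) in the 15 nuclei with 1 UMI of Tmem163 and at 74.3 CPM (40.6 to 125) in the 21 members with 2. Gldn was at 44.5 CPM (16.3 to 96.9) in those 15 nuclei and at 53.1 CPM (25.4 to 97.6) in those 21 members. For both genes the intervals on the 2 sides of the limit overlapped.

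Transmitter genes were then compared. Slc17a6, which chose both the members and the others and so checks nothing, was at 135 CPM in US+ members and 163 CPM in US- members, against 150 and 158 CPM in the other Slc17a6-positive nuclei. Gad2, which encodes a GABA-synthesizing enzyme, was at 131 CPM in US+ members and 109 CPM in US- members, against 123 and 108 CPM in the others. Gad1, another such enzyme, was at 42.0 and 29.2 CPM in US+ and US- members, against 44.3 and 42.7 CPM in the others. The vesicular GABA transporter Slc32a1 had 6 and 3 UMIs in US+ and US- members (9.34 and 6.27 CPM), against 14.5 and 11.6 CPM in the others. Summed, these GABA genes were at 182 and 144 CPM in US+ and US- members, against 181 and 162 CPM in the others. Members thus held GABA-gene transcripts at a level near that of the others in US+. In US- the interval of the members (112 to 182 CPM) held the level of the others, so no lower level was shown.

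Of the other genes the label names, Gldn had the larger ratio, and Calcr rested in US- on a single nucleus. Gldn had 41 UMIs (63.8 CPM) in US+ members and 23 UMIs (48.0 CPM) in US- members, against 15.2 and 13.4 CPM in the other Slc17a6-positive nuclei. The ratio was 4.20 (2.95 to 5.85) in US+ and 3.58 (2.22 to 5.54) in US-, although Gldn stayed below the count minimum used for calls. At least 1 Gldn UMI was found in 26 of 91 members (28.6%, 19.6 to 39.0) and in 8.97% (7.99 to 10.0) of the others. The background share, in 674 nuclei with at least 2 Drd1 UMIs and no Slc17a6, was 6.23% (4.53 to 8.33) at a median of 10709 UMIs a nucleus, against 9872 in members and 8790 in the others.

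Calcr had 58 UMIs (90.3 CPM) in US+ members and 38 UMIs (79.4 CPM) in US- members, against 48.3 and 33.6 CPM in the others. The ratios were 1.87 (1.41 to 2.44) in US+ and 2.37 (1.65 to 3.30) in US-. A single US- member held 23 Calcr UMIs, and without it the US- ratio was 0.967 (0.537 to 1.61). Calcr was found in 24 of 91 members (26.4%, 17.7 to 36.7), in 469 of 3120 of the others (13.8% to 16.3%) and in 2.67% (1.59 to 4.19) of the Drd1-positive nuclei. Both markers together were found in 6 members, Calcr alone in 18, Gldn alone in 20 and neither in 47.

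**Figure D1:**
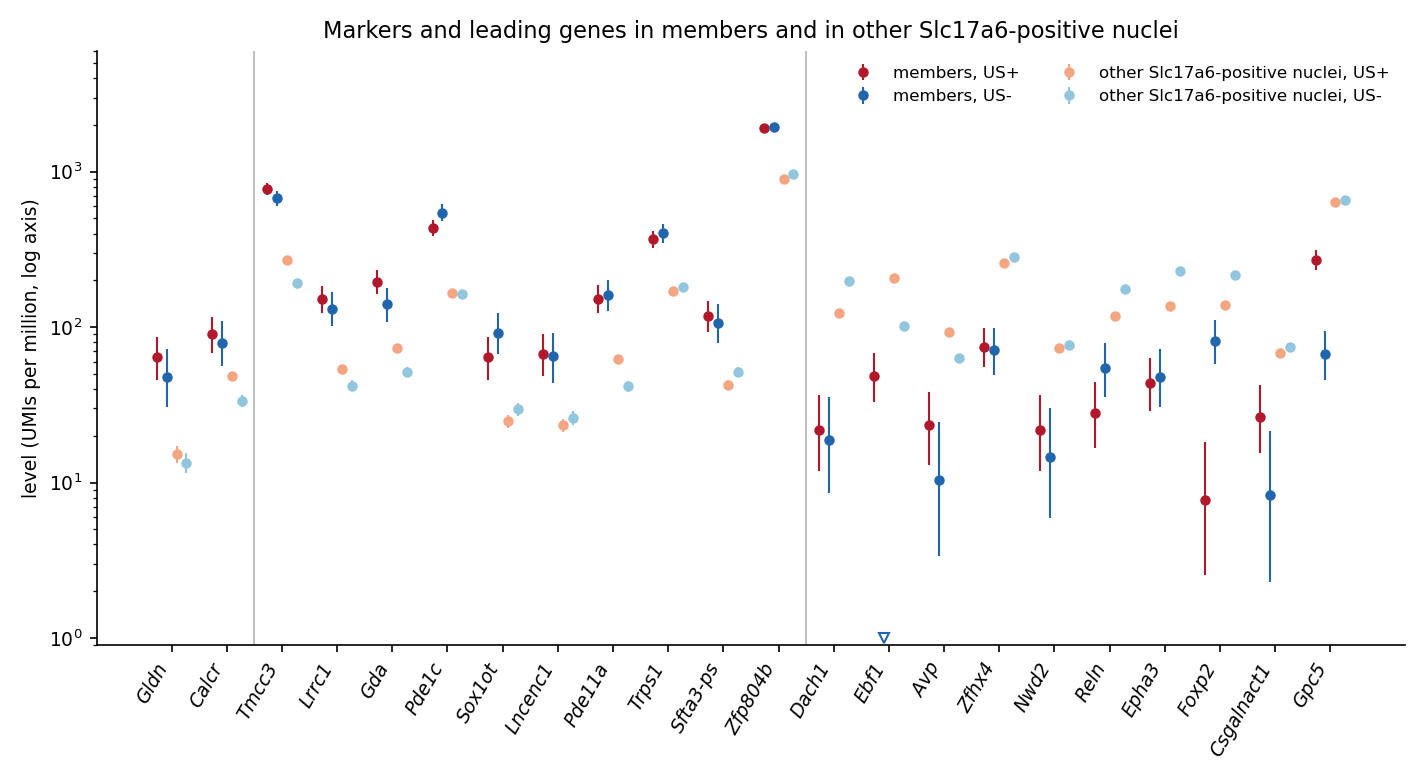
Levels of the markers Gldn and Calcr, of the 10 genes highest in members by the weaker library and of the 10 lowest, leaving out predicted genes with Gm- or Rik-type symbols, in CPM on a log axis. Points are the summed nuclei of a library (US+ and US- members, then US+ and US- other Slc17a6-positive nuclei), bars are exact 95% Poisson intervals and an open triangle at the bottom marks 0 UMIs (Ebf1 in US- members); Gldn sits at 63.8 and 48.0 in members, above 15.2 and 13.4 in the others.

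The other genes of the members were then set beside the rest of the Slc17a6-positive nuclei. Genes were tested when UMIs observed in members plus those expected at the level of the others came to at least 100. Of 4289 such genes, leaving out the 3 genes of the rule, 12 (0.28%) were at least 2-fold higher in members in both libraries. Another 21 (0.49%) were at least 2-fold lower. The median gene was near 0 on the log2 scale (-0.01 in US+, 0.01 in US-). Both figures depend on the scaling to totals and on the count minimum.

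Tmcc3, an endoplasmic reticulum membrane protein, stood highest by its weaker library over all members. It was at 773 CPM in US+ members and 677 CPM in US- members, against 272 and 192 CPM in the others, a ratio of 2.85 (2.59 to 3.12) and 3.53 (3.13 to 3.96). It was found in 89 of 91 members, against 62.2% of the others and 50.9% of the Drd1-positive nuclei. After thinning to 2000 UMIs the shares were 68.1% (57.5 to 77.5) in members and 30.6% (29.0 to 32.3) in the others, so the gap in detection was also seen at equal depth.

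A pair of phosphodiesterases, enzymes that break down cyclic nucleotides, was higher in members. Pde1c, which calcium and calmodulin activate, was at 434 and 545 CPM in US+ and US- members, against 165 and 164 CPM in the others, with ratios of 2.63 (2.32 to 2.97) and 3.32 (2.91 to 3.78). Pde11a was at 153 and 161 CPM in US+ and US- members, against 62.5 and 41.7 CPM in the others, with ratios of 2.44 (1.96 to 3.00) and 3.86 (3.00 to 4.90).

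Gda encodes guanine deaminase, an enzyme of purine breakdown. It was at 196 and 140 CPM in US+ and US- members, against 73.6 and 51.8 CPM in the others, with ratios of 2.66 (2.20 to 3.20) and 2.70 (2.07 to 3.48). Gda was found in 67.0% of members, 27.7% of the others and 78.5% of the Drd1-positive nuclei. Lrrc1, a leucine-rich-repeat scaffold protein, had ratios of 2.81 (2.26 to 3.47) in US+ and 3.13 (2.37 to 4.06) in US-.

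Among the higher genes, Trps1 encodes a zinc finger repressor of transcription. It was at 367 and 401 CPM in US+ and US- members, against 172 and 180 CPM in the others, with ratios of 2.14 (1.86 to 2.44) and 2.22 (1.91 to 2.58). Trps1 was found in 79.1% of members, 58.5% of the others and 84.6% of the Drd1-positive nuclei. Zfp804b, a zinc finger protein gene, was just past the limit, at 1917 and 1938 CPM in US+ and US- members, against 898 and 967 CPM in the others. A single nucleus held 157 of its 2160 UMIs.

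Noncoding transcripts made up much of the rest. Sox1ot, which overlaps the transcription factor gene Sox1, had ratios of 2.57 (1.82 to 3.54) in US+ and 3.11 (2.23 to 4.26) in US-. Lncenc1 had ratios of 2.85 (2.03 to 3.91) and 2.48 (1.66 to 3.58). Sfta3-ps lies beside Nkx2-1 on chromosome 12 (56488321 to 56529427, with Nkx2-1 at 56531958 to 56536908) and had ratios of 2.79 (2.17 to 3.53) and 2.08 (1.53 to 2.76). The other 2 of the 12 genes were the predicted genes Gm13481 and Gm32647, whose symbols keep them out of the rule for named genes and which are named here after their values were seen.

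Several genes were near the limit in US+ and past it in US-. Cadps2, which serves dense-core vesicle release, had a ratio of 1.87 (1.68 to 2.08) in US+ and 3.31 (2.95 to 3.71) in US-. Zbtb16, a zinc finger transcription factor that glucocorticoids induce, had 1.91 (1.50 to 2.39) and 4.43 (2.91 to 6.53). Zim1, an imprinted zinc finger gene, had 1.91 (1.53 to 2.36) and 2.73 (2.19 to 3.37). Maml2, a coactivator of Notch signalling, had 1.86 (1.56 to 2.21) and 2.72 (2.24 to 3.27).

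The lower genes included transcription factors that mark other neurons. Dach1 had 14 UMIs (21.8 CPM) in US+ members and 9 UMIs (18.8 CPM) in US- members, against 123 and 199 CPM in the others, with ratios of 0.178 (0.0969 to 0.298) and 0.0942 (0.0430 to 0.179). Zfhx4 was at 74.7 and 71.0 CPM in US+ and US- members, against 259 and 282 CPM in the others. Ebf1 had 31 UMIs (48.2 CPM) in US+ members, of which 22 were in a single nucleus, and 0 UMIs in US- members, where 3 UMIs would be 6.27 CPM. In the others Ebf1 was at 208 and 102 CPM.

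Foxp2, a forkhead transcription factor, was at 7.78 CPM in US+ members and 81.5 CPM in US- members, against 140 and 217 CPM in the others, and 30 of its 44 member UMIs were in a single nucleus. Meis2 was at ratios of 0.445 in US+ and 0.410 in US-. In the list of 106 neuronal identity transcription factors, 19 passed the count minimum and 0 were higher. These 5 (Dach1, Ebf1, Zfhx4, Foxp2 and Meis2) were lower, against 0.49% lower over all genes. The minimum also counts UMIs expected at the level of the others, so genes high in the others pass it with few member UMIs. Dach1, Ebf1, Zfhx4 and Foxp2 each had fewer than 100 UMIs in members. Skor2, of the same list, was left out as a gene of the rule. The values of this list are therefore a description and not a test. The list's median log2 ratio was -0.13 in US+ and -0.36 in US-, beside -0.01 and 0.01 over all genes. Of this list, 31 factors had no UMI in members.

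Sox14, a transcription factor of the same list, was too low for the count minimum and is named here after its values were seen. It had 23 UMIs in US+ members and 15 in US- members, or 35.8 and 31.3 CPM, against 1.12 and 1.17 CPM in the others. The ratios were 32.05 (16.8 to 61.5) and 26.7 (12.3 to 57.7). It was found in 31 of 91 members (34.1%, 24.5 to 44.7), in 1.09% (0.756 to 1.52) of the others and in 0.148% (0.00376 to 0.824) of the Drd1-positive nuclei. Its count never passed 2 in a nucleus, and after thinning to 2000 UMIs the share was 5.49% in members and 0.224% in the others. Npffr1, a receptor of RFamide peptides, and Nkx2-1 were singled out in the same way. Npffr1 was found in 35.2% (25.4 to 45.9) of members, 6.76% (5.91 to 7.70) of the others and 2.67% (1.59 to 4.19) of the Drd1-positive nuclei. Nkx2-1 was found in 20.9% (13.1 to 30.7) of members, 5.48% (4.71 to 6.34) of the others and 1.78% (0.923 to 3.09) of the Drd1-positive nuclei.

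Secreted and surface proteins were also among the lower genes. Reln, the extracellular protein reelin, was at 28.0 and 54.3 CPM in US+ and US- members, against 118 and 175 CPM in the others. Gpc5, a heparan sulfate proteoglycan of the glypican family, was at 271 and 66.8 CPM in US+ and US- members, against 635 and 654 CPM in the others. Epha3, an ephrin receptor of axon guidance, had ratios of 0.317 in US+ and 0.208 in US-, the only 1 of 37 cadherin and guidance genes tested that was called.

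Avp, the neuropeptide vasopressin, had 15 and 5 UMIs in US+ and US- members, or 23.3 and 10.4 CPM, against 92.8 and 62.9 CPM in the others. Among 41 neuropeptide genes 3 passed the minimum and 13 had no UMI in members. The other 2 that passed had ratios within 2-fold: 0.729 in US+ and 0.892 in US- for Scg2, a granin, and 0.654 and 0.779 for Agrp. Nwd2 (0.296 and 0.190) and Csgalnact1 (0.387 and 0.112), an enzyme of chondroitin sulfate synthesis, completed the 10 lowest genes.

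For most gene lists the count of calls says little, since 0.28% higher and 0.49% lower over all genes would give about 0 calls in a list of this size. Of 61 peptide and hormone receptor genes 16 passed the minimum and 0 were called in either direction. The estrogen receptor Esr1 had ratios of 1.13 in US+ and 0.742 in US-. Of 28 TRP and PIEZO channel genes 8 passed and 1 was called: Trpm3, a heat-activated channel, was lower, with ratios of 0.318 in US+ and 0.474 in US-. Summed, the TRP and PIEZO genes had ratios of 0.650 (0.605 to 0.697) and 0.754 (0.695 to 0.817). Trpm2, the channel on which the study centred, had 11 and 10 UMIs in US+ and US- members, with ratios of 0.720 (0.357 to 1.30) and 0.746 (0.355 to 1.39).

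The same background applies to genes of excitability and transmission. Of 49 potassium and HCN channel genes 23 passed, of 15 calcium channel genes 11, of 25 glutamate receptor genes 20, of 20 GABA and glycine receptor genes 15 and of 38 receptor genes for monoamines, acetylcholine, adenosine and cannabinoids 8, with 0 called in each. Of 12 markers of torpor-associated and warm-sensing POA neurons 2 passed and 0 were called, and their sum had ratios of 0.745 (0.629 to 0.877) in US+ and 0.660 (0.533 to 0.809) in US-. Adcyap1 had 5 UMIs in US+ members and 5 in US- members, with ratios of 0.484 (0.156 to 1.14) and 0.805 over the others.

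The families of the marker genes were also read against 0.28% and 0.49%. Of 39 genes of the SKI family and of BMP and TGF-beta signalling 6 passed, with 0 called. Of 26 zinc transport and storage genes 2 passed, of 19 genes of the node of Ranvier and axon initial segment 12 passed, and of 10 genes of the calcitonin receptor family Calcr alone passed, again with 0 called. Of 6 Purkinje cell markers, Skor2 among them, Calb1 and Itpr1 passed and 0 were called. Itpr1, an intracellular calcium channel, had ratios of 1.35 in US+ and 1.02 in US-.

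Members were next set beside 3 groups of other Slc17a6-positive nuclei that held at least 2 UMIs of Sim1 (470 nuclei), Adcyap1 (80) or Tcf7l2 (226). Sim1 is a transcription factor of the paraventricular and supraoptic lineages, Adcyap1 encodes the neuropeptide PACAP of torpor-associated POA neurons and Tcf7l2 marks thalamic neurons. Of the members, 2 held at least 2 UMIs of Sim1, 2 of Adcyap1 and 1 of Tcf7l2, so there was little overlap.

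Calcr did not set the members apart from the Sim1 group, at 90.3 and 79.4 CPM in US+ and US- members, against 73.3 and 57.7 CPM in Sim1-positive nuclei, with ratios of 1.23 (0.912 to 1.64) and 1.38 (0.918 to 2.02). Gldn did, at 63.8 and 48.0 CPM in US+ and US- members, against 5.91 and 5.47 CPM in Sim1-positive nuclei, with ratios of 10.8 (6.37 to 18.7) and 8.79 (3.92 to 21.6). In members against Tcf7l2-positive nuclei, Calcr had ratios of 6.17 (3.59 to 11.1) and 9.60 (4.81 to 20.8). The US- ratios of Calcr over both groups include the single member with 23 of the 38 UMIs, and were not computed without it. Zfp804b did not set the members apart from Tcf7l2-positive nuclei. Its ratio over them was 1.17 (1.09 to 1.26) in US+, and in US- members it was lower, with 0.794 (0.737 to 0.854). Over Sim1-positive nuclei its US+ and US- ratios were 2.38 and 1.63, and over Adcyap1-positive nuclei 2.30 and 1.36. Pde11a was at 153 and 161 CPM in US+ and US- members, against 21.0 and 14.0 CPM in Adcyap1-positive nuclei, with a ratio of 7.25 (4.05 to 14.1) in US+ and one between 4.72 and 36.4 in US-. Dach1 was at 21.8 and 18.8 CPM in US+ and US- members, against 529 and 677 CPM in Tcf7l2-positive nuclei. Avp was at 247 and 317 CPM in US+ and US- Sim1-positive nuclei. It was at 42.1 and 19.6 CPM in Adcyap1-positive nuclei and at 27.6 and 30.8 CPM in Tcf7l2-positive nuclei, so members were not alone in low Avp. Foxp2 in members over Adcyap1-positive nuclei had ratios of 0.0844 (0.0264 to 0.209) in US+ and 1.00 (0.605 to 1.68) in US-. Most of the 39 Foxp2 UMIs of US- members were in the single nucleus described above, so the US- ratio leans on it.

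To see whether the members belong together, all Slc17a6-positive nuclei were clustered on genes that left out the 3 genes of the rule, early and delayed activity genes, mitochondrial genes, Xist and Y-linked genes. This gave 20 clusters, and members were found in 11 of them. Cluster 10 held 47 members (22 US+, 25 US-) among 144 nuclei, and cluster 6 held 21 members (10 US+, 11 US-) among 215 nuclei. Cluster 0 held 12 members, 11 of them US+ and 1 US-, among 407 nuclei (309 US+, 98 US-). The other 8 clusters held 1 to 3 members each. The share in cluster 10 was 51.6% (40.9 to 62.3), and 74.7% of members were in clusters 10 and 6. At resolution 0.5 in place of 1, a single cluster held 73.6% of the members, and with 15 principal components in place of 30 a single cluster held 71.4%.

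**Figure D2:**
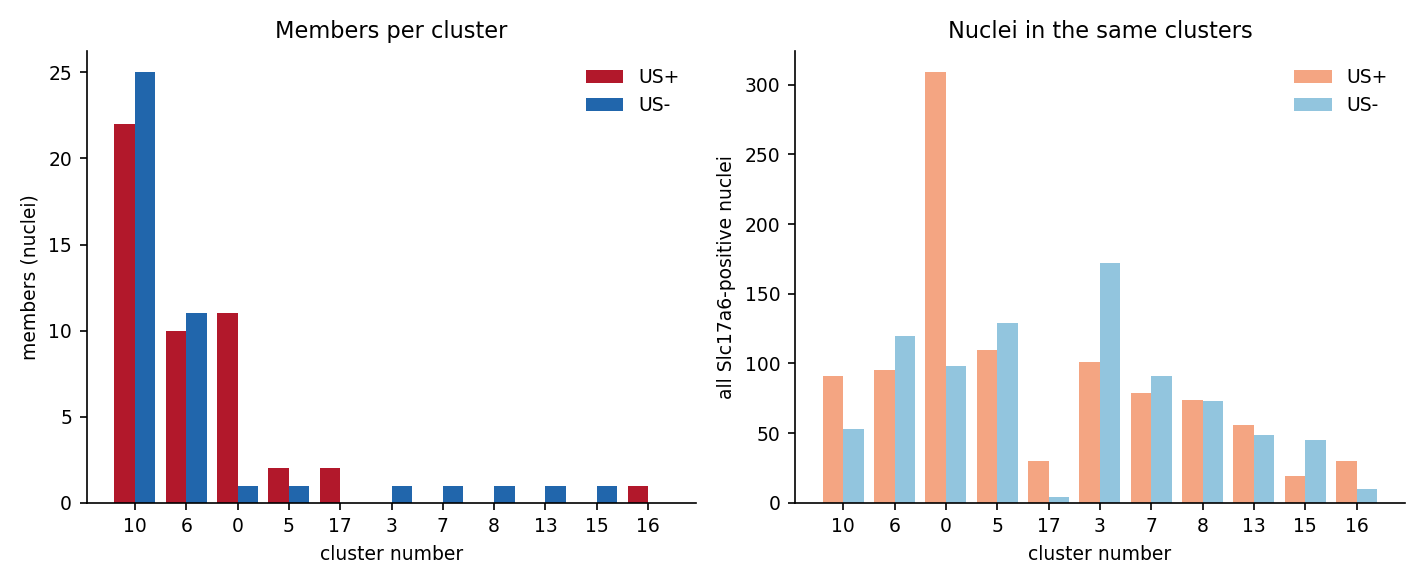
Members (left) and all Slc17a6-positive nuclei (right) in each of the 11 clusters that held a member, as numbers of nuclei in US+ (left bar) and US- (right bar). Clusters 10 and 6 held members of both libraries in like numbers, 22 and 25 in cluster 10 and 10 and 11 in cluster 6, while 11 of the 12 members in cluster 0 were from US+.

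These clusters rest on the same cells, so the genes that define them are given as their identity and not as a result. Cluster 10 was led by Skor2, Gm47757, Clca3a2, Tmcc3, Lrrc1 and Sox14, although Skor2 was not used to make it. Cluster 6 was led by Sfta3-ps, Gldn, Rxfp1, Pappa and Svil, with Nkx2-1, a homeobox factor of the ventral forebrain, and Calcr among its first 10. Cluster 0 was led by St18, Grik3, Nrxn3 and Ecel1. Skor2 was found in 62 of the 144 nuclei of cluster 10 and in 26 of the 215 of cluster 6. The clusters were given no cell type name.

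The label's markers divided between the clusters, which is also given as a description since the clustering used them. Among members, Calcr was at 165 and 134 CPM in US+ and US- of cluster 10, against 0 and 20.3 CPM in cluster 6, where it rested on 2 UMIs. In US- members of cluster 10, 23 of the 32 Calcr UMIs were in a single nucleus, so the US- level leans on it. Gldn was at 25.7 and 16.7 CPM in US+ and US- members of cluster 10, against 252 and 163 CPM in those of cluster 6. The ratio of cluster 10 over cluster 6 was 14.3 (3.80 to 121) for Calcr and 0.101 (0.0429 to 0.210) for Gldn. A Calcr UMI was found in 17 of 47 members of cluster 10 and 1 of 21 of cluster 6, and a Gldn UMI in 7 of 47 and 12 of 21.

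Calcr was not absent from cluster 6 as a whole. Calcr was at 171 CPM in its 194 nuclei that were not members, close to the 163 CPM of the 97 such nuclei in cluster 10. The nuclei of cluster 6 that met the rule were thus low in Calcr within a cluster where it was otherwise as high as in cluster 10.

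Other genes that differed most between the members of the clusters, by the weaker library and with at least 30 UMIs, gave each its own profile. Higher in cluster 10 were Luzp2, the neuropeptide receptor gene Tacr1, the muscarinic acetylcholine receptors Chrm2 and Chrm3, the sorting receptor Sorcs3, the transcription factor Bcl11a and Clca3a2. Tacr1, the receptor of substance P, had 26 and 37 UMIs in US+ and US- members of cluster 10 (134 and 155 CPM), against 0 and 1 UMI in those of cluster 6. Chrm2 was at 206 and 205 CPM in US+ and US- members of cluster 10, against 10.5 and 20.3 CPM in those of cluster 6. Bcl11a was at 170 and 171 CPM in US+ and US- members of cluster 10, against 10.5 and 20.3 CPM in those of cluster 6.

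Higher in cluster 6 were the presynaptic protein gene Unc13c, Adarb2, the semaphorin Sema6d, the diacylglycerol kinase Dgkb, the cell adhesion gene Alcam and the phosphodiesterase Pde10a. Dgkb was at 818 and 556 CPM in US+ and US- members of cluster 10, against 3103 and 3416 CPM in those of cluster 6. Pcsk5, a proprotein convertase, was at 41.1 and 8.36 CPM in US+ and US- members of cluster 10, against 178 and 234 CPM in those of cluster 6. The higher genes over all members were not shared evenly: Trps1 had 646 CPM in members of cluster 10, against 77.4 CPM in those of cluster 6, whereas Pde1c had 459 CPM in the members of cluster 10, against 759 CPM in those of cluster 6.

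**Figure D3:**
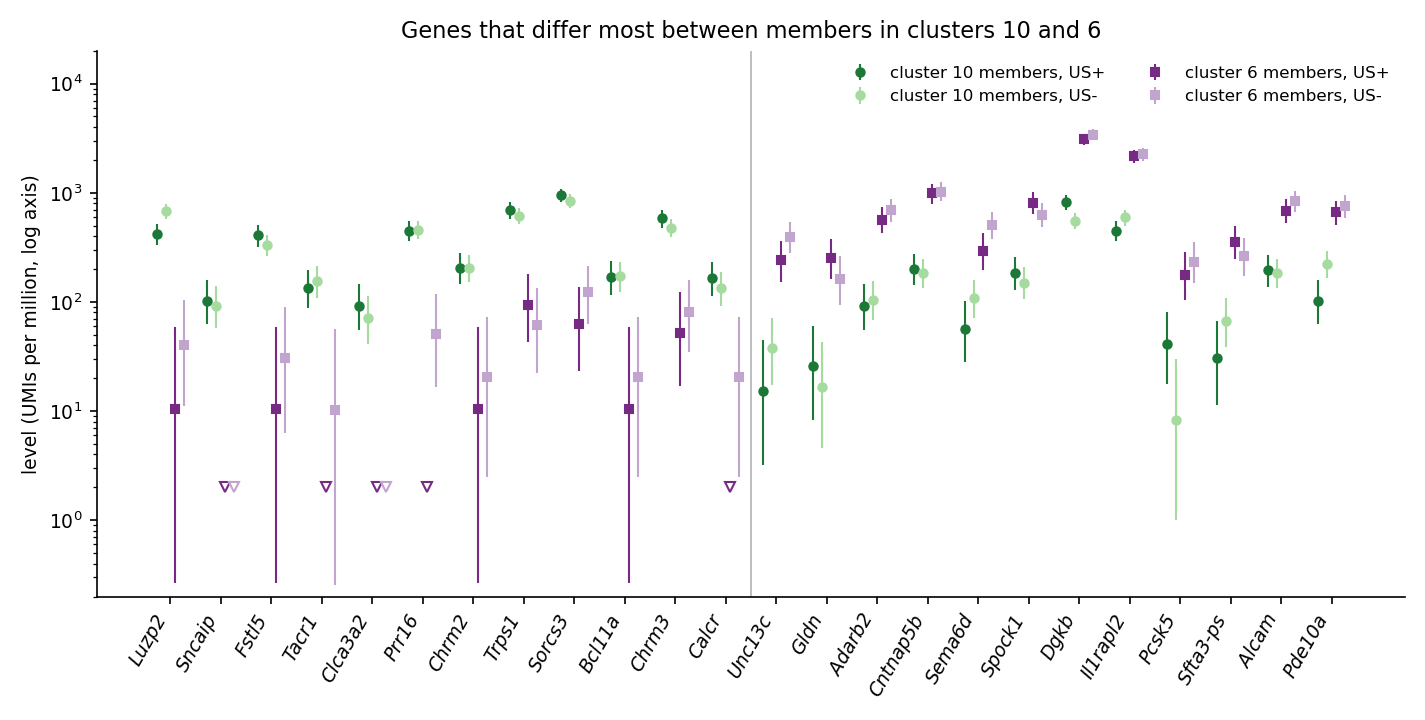
The 12 genes highest and the 12 lowest in members of cluster 10 (22 US+, 25 US- nuclei) against members of cluster 6 (10 US+, 11 US- nuclei), by the weaker library, in CPM on a log axis with exact 95% Poisson intervals; open triangles mark 0 UMIs. Calcr sits with the genes of cluster 10 (165 and 134) and Gldn with those of cluster 6 (252 and 163). Of the 32 Calcr UMIs in US- members of cluster 10, 23 were in a single nucleus.

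The 23 members outside clusters 10 and 6 were deep and held GABA-gene transcripts. Their median was 19133 UMIs, against 9249 for members in cluster 10 and 9381 for those in cluster 6. At least 2 UMIs of Gad1, Gad2 and Slc32a1 together were found in 20 of these 23, in 10 of 47 members of cluster 10 and in 1 of 21 of cluster 6. In the other Slc17a6-positive nuclei the share was 33.5% (31.9 to 35.2), near the 34.1% (24.5 to 44.7) over all members. Whether some of these nuclei are doublets of a glutamatergic and a GABAergic nucleus was not tested. Doublets were treated only by the limit of 7500 genes, and no doublet caller was run.

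**Figure D4:**
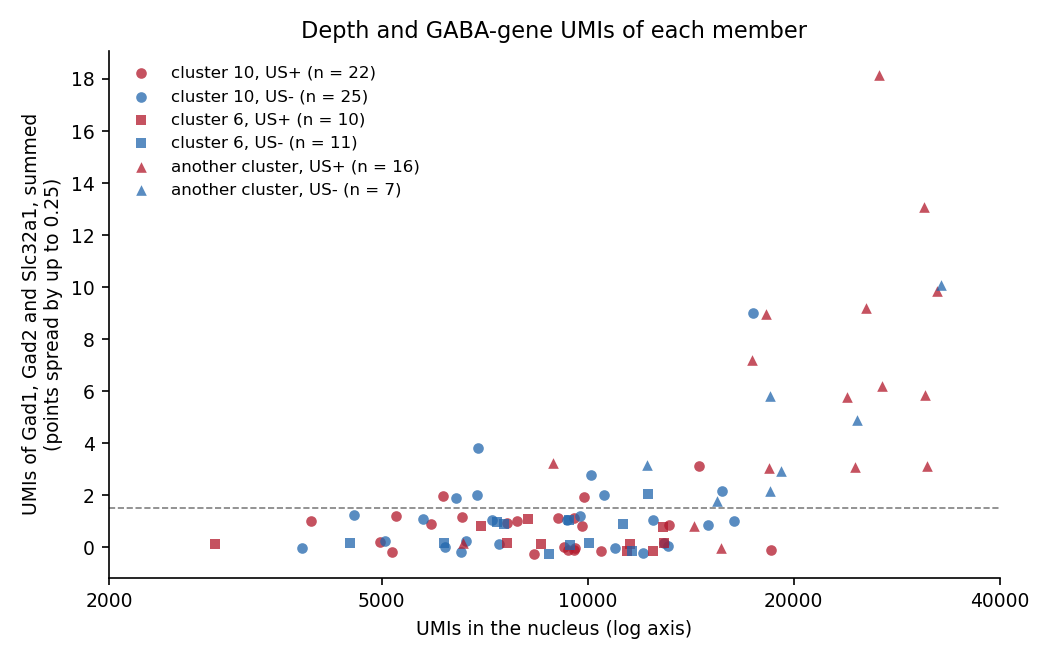
Each of the 91 members by its UMIs (log axis) and its summed UMIs of Gad1, Gad2 and Slc32a1, with shape for its cluster and colour for its library (US+ red, US- blue). Points above the dashed line have 2 or more GABA-gene UMIs: 20 of the 23 members in another cluster (triangles), most of them at high depth, against 11 of the 68 in clusters 10 and 6.

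Members with at most 1 GABA-gene UMI (60 of 91) were set beside other nuclei under the same limit. Of 2102 genes tested, 19 were higher and 29 lower, both larger shares than the 0.28% and 0.49% over all members. In members of clusters 10 and 6 alone, 14 of 2455 genes tested were higher (0.570%) and 47 lower (1.91%). Of the 12 higher genes over all members 10 were tested there and 8 were called, and of the 21 lower genes 14 were tested and 13 were called. Tmcc3 was then at a log2 ratio of 1.82 in US+ and 1.95 in US-. Cadps2, Maml2 and Zim1 were among the genes that joined the higher ones. Dach1 had 0 UMIs in US+ members and 4 in US- members of cluster 10, and 0 and 2 in those of cluster 6, and was lower there too.

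The question of what differed between US+ and US- members was asked over 2143 genes with at least 100 UMIs in members. Of these, 62 (2.89%) were at least 1.5-fold higher in US+ members and 51 (2.38%) were at least 1.5-fold lower. The median gene was at 0.00 on the log2 scale. The libraries differed in their mix of members. Those outside clusters 10 and 6 were 16 in US+ and 7 in US-, and together held 493873 of the 1121310 member UMIs. How much of the 62 and 51 calls came with this mix was not tested. In members of clusters 10 and 6 alone 43 of 1066 genes tested were higher and 29 lower. These counts rest on fewer genes and, as shares of the genes tested, are both larger than the 2.89% and 2.38% over all members. Of the 62 and 51 genes, 14 and 15 still passed the count minimum there, and 6 and 7 were called again.

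St18, a transcription factor also found in oligodendrocytes, had 123 UMIs (191 CPM) in US+ members and 0 in US- members, where 3 UMIs would be 6.27 CPM. A single US+ nucleus held 114 of them, and the same nucleus held 158 UMIs of astrocyte and oligodendrocyte markers. Qk, an RNA-binding protein that myelinating cells use, was at 176 CPM in US+ members and 60.6 CPM in US- members, with 43.7% of its UMIs in 1 nucleus. In members of clusters 10 and 6 alone its log2 ratio was -1.18.

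Gpc5 was at 271 CPM in US+ members and 66.8 CPM in US- members, a ratio of 4.05 (2.77 to 6.11), and at 0.971 (0.944 to 0.998) in the other Slc17a6-positive nuclei. The serotonin receptor Htr1f was at 226 CPM in US+ members and 62.7 CPM in US- members (3.60, 2.42 to 5.53), and at 0.943 (0.889 to 1.00) in the others. Pde1a, a calcium-activated phosphodiesterase, was at 378 CPM in US+ members and 107 CPM in US- members (3.55, 2.62 to 4.90), and at 1.04 (0.999 to 1.08) in the others. Neto1, an auxiliary subunit of glutamate receptors, was at 134 CPM in US+ members and 50.1 CPM in US- members (2.67, 1.68 to 4.39), and at 0.764 (0.718 to 0.813) in the others. In members of clusters 10 and 6 alone these genes had log2 ratios of 0.66 (Gpc5), 0.70 (Htr1f), 1.10 (Pde1a) and 1.09 (Neto1), all above 0. As ratios there, Gpc5 was at 1.58 (0.918 to 2.77), an interval that holds 1, and Neto1 at 2.14 (1.17 to 4.03). Of the 174 Gpc5 UMIs in US+ members, 140 were in members outside these clusters.

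The lower genes had smaller ratios. Tafa2, a secreted neurokine, was at 226 CPM in US+ members and 480 CPM in US- members (0.470, 0.379 to 0.581), with a ratio of 0.902 (0.874 to 0.931) in the others. Gpc6, another glypican, was at 218 CPM in US+ members and 451 CPM in US- members (0.483, 0.388 to 0.600), with a ratio of 1.00 (0.975 to 1.03) in the others. Kcnc1, a fast potassium channel, was at 76.3 CPM in US+ members and 148 CPM in US- members (0.514, 0.350 to 0.750). The log2 ratios in members of clusters 10 and 6 alone were -0.78 for Tafa2, -1.30 for Gpc6 and -1.11 for Kcnc1. The remaining 7 of the 10 lowest genes, Gm13269, Rab11fip4, Gm21798, Klhl24, Pdcd4, Mia2 and Rif1, had ratios of 0.505 to 0.556. The remaining 4 of the 10 highest, Gm38505, Adarb2, 4930532I03Rik and 9630028H03Rik, had ratios of 2.29 to 2.92.

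Immediate-early genes, which neurons switch on within minutes of strong activity, were sparse in members. The rapid list of 32 genes summed to 114 UMIs (177 CPM) in US+ members and 28 UMIs (58.5 CPM) in US- members, a ratio of 3.03 (1.99 to 4.77). A single US+ nucleus held 23 of the 114 UMIs, and the ratio was 2.01 with every nucleus weighted equally and 2.33 (0.779 to 8.34) after thinning to 2000 UMIs. In the other Slc17a6-positive nuclei it came to 212 CPM for US+ and 128 CPM for US-, a ratio of 1.66 (1.57 to 1.76). Whether the ratio differed between members and others was not tested, as there is 1 library a group. Mitochondrially encoded transcripts moved with the library as well. They were at 414 CPM in US+ members and 322 CPM in US- members (1.29, 1.05 to 1.58), and had ratios of 1.44 (1.12 to 1.85) in members of clusters 10 and 6 and 1.37 (1.33 to 1.41) in the others. Their part in the early-gene ratio was not tested.

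Much of the difference came with the members outside clusters 10 and 6. In the 16 US+ and 7 US- members there, the list was at 255 CPM in the US+ nuclei and 77.9 CPM in the US- nuclei (3.28, 1.75 to 6.80). In the 32 US+ and 36 US- members of clusters 10 and 6, it had 24 and 17 UMIs, or 82.8 and 50.4 CPM, with a ratio of 1.64 (0.847 to 3.26). Among members with at most 1 GABA-gene UMI the ratio was 1.22. For the members of clusters 10 and 6 the interval held both 1 and the 1.66 of the others, so it cannot tell a difference from none.

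The 5 early genes Fos, Fosb, Nr4a1, Egr1 and Dusp1 summed to 27 UMIs in 14 of 48 US+ members and 4 UMIs in 4 of 43 US- members, a ratio of 5.03 (1.75 to 19.8), and had a ratio of 1.78 (1.57 to 2.01) in the others. The ratio in members was 1.79 (0.257 to 19.8) after thinning and 2.55 (0.456 to 25.8) with at most 1 GABA-gene UMI. Fosb, part of the AP-1 transcription factor, had 7 UMIs in US+ members and 0 in US- members. Nr4a1, an orphan nuclear receptor, had 8 UMIs in US+ members and 1 in US- members, and Fos had 7 and 1. In members of clusters 10 and 6 the sum was 7 UMIs in US+ and 2 in US- (4.08, 0.776 to 40.2). The 22 delayed activity genes were at 988 CPM in US+ members and 1053 CPM in US- members (0.939, 0.834 to 1.06).

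**Figure D5:**
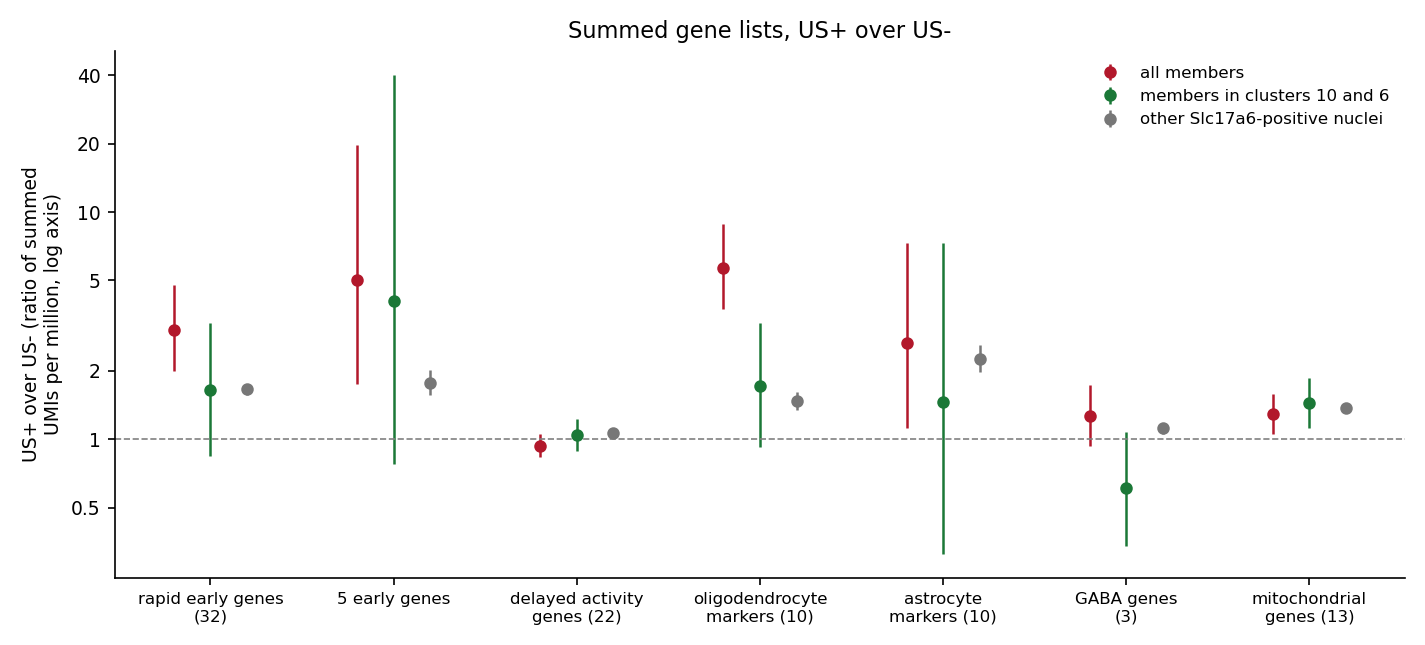
Ratio of US+ over US- for summed gene lists (number of genes in brackets), on a log axis with exact 95% intervals, in all members, in members of clusters 10 and 6, and in the other Slc17a6-positive nuclei. The rapid early genes are at 3.03 in all members, 1.64 in members of clusters 10 and 6 and 1.66 in the others, and the oligodendrocyte markers at 5.67, 1.72 and 1.47.

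Oligodendrocyte and astrocyte markers differed between the libraries in members, and a single nucleus carried most of the first. The 10 oligodendrocyte markers were at 308 CPM in US+ members and 54.3 CPM in US- members (5.67, 3.76 to 8.90), and came to 80.9 CPM (US+) and 55.0 CPM (US-) in the others. The US+ nucleus with the St18 UMIs held 158 of their 198 UMIs in US+ members, and without it the level in US+ members was 65.4 CPM and the ratio 1.205 (0.717 to 2.06). The 10 astrocyte markers were at 38.9 CPM in US+ members and 14.6 CPM in US- members (2.66, 1.12 to 7.29), and the 8 microglia markers at 131 CPM in US+ members and 121 CPM in US- members (1.08, 0.763 to 1.54). Of these markers, 1 oligodendrocyte, 2 astrocyte and 3 microglia genes had no UMI in members, and the summed oligodendrocyte level of a member ran up to 5088 CPM in US+ and 305 CPM in US-. Only 2 members held 10 or more UMIs of the oligodendrocyte and astrocyte lists together. Without such nuclei 53 genes were higher in US+ members and 48 lower, beside 62 and 51 over all members. The part of these markers in the other differences was not tested.

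Zbtb16 was the 1 glucocorticoid-induced gene with enough UMIs for a call between libraries. It was at 125 CPM in US+ members and 62.7 CPM in US- members (1.99, 1.29 to 3.13), and in the others at 65.3 CPM (US+) and 14.1 CPM (US-). Fkbp5, a chaperone cofactor of the glucocorticoid receptor that glucocorticoids induce, had 52 UMIs in US+ members and 21 in US- members (1.84, 1.09 to 3.22), below the minimum, and a ratio of 1.76 in the others.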

How the data were processed

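Single-nucleus libraries (10x 3′ v3.1) of US+ and US- POA were analysed. The authors aligned reads with Cell Ranger 6.1.1 to mm10 and scaled read depth down to that of the less saturated library. The deposited matrices hold raw UMI counts per gene and nucleus. Nuclei with 200 to 7500 genes, at most 5% mitochondrial UMIs and at least 2000 UMIs were kept. The last limit left out 2610 nuclei. Doublets were treated by the upper limit on genes alone.

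UMIs were summed per library and divided by their total (CPM). Ratios carry exact conditional binomial intervals, levels exact Poisson and shares exact Clopper-Pearson intervals (scipy 1.17.1). Calls added 0.5 CPM and needed 100 UMIs, observed plus expected for members against others and observed between libraries. Clusters came from 2000 variable genes, 30 principal components, 20 neighbours and Leiden at resolution 1 (scanpy 1.11.5, igraph 0.11.9). The call functions were tested on simulated data. Named genes were the 15 highest and 10 lowest by the weaker library (without Gm- or Rik-type symbols), the 10 highest and lowest between libraries, the label's markers, 5 early genes, and per list called genes and the most abundant others, with exceptions said. Members and lists were chosen with earlier results of these data known. Alternatives included TMM scaling (edgeR 4.0.16). No sequence is shown, as no result turned on one.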

Additional observations from a re-analysis of the deposited data

Results flagged for a closer look

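Gpc5, Neto1 and Cadps2 moved in opposite directions between US+ and US- in members and in the other Slc17a6-positive nuclei, with both intervals off 1. The difference itself was not tested, since there is 1 library a group. Gpc5 had a ratio of US+ over US- of 4.05 (2.77 to 6.11) in members and 0.971 (0.944 to 0.998) in the others. Its log2 ratio was 0.66 in members of clusters 10 and 6, beside 2.01 in all members. As a ratio in clusters 10 and 6 it was 1.58 (0.918 to 2.77), an interval that holds 1. Neto1 had 2.67 (1.68 to 4.39) in members and 0.764 (0.718 to 0.813) in the others. Its log2 ratio was 1.09 in members of clusters 10 and 6 (a ratio of 2.14, 1.17 to 4.03), beside 1.41 in all members. Cadps2 had 0.794 (0.682 to 0.924) in members and 1.40 (1.34 to 1.47) in the others. In members of clusters 10 and 6 its ratio was 1.05 (0.874 to 1.25), no longer opposite to the others.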

How the results depend on the processing

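The counts of called genes depended on which members and how many UMIs were used. Beside the 12 genes higher in members than in the other Slc17a6-positive nuclei, 19 were called among nuclei with at most 1 GABA-gene UMI, 6 after thinning to 2000 UMIs, 5 with a minimum of 300 UMIs a gene and 229 with none. Beside the 21 lower genes, 43 were called when every nucleus had equal weight, 4 after thinning, 7 with the minimum of 300, 1090 with none and 47 in members of clusters 10 and 6. Beside the 62 genes higher in US+ than in US- members, 37 were called with at least 2 Skor2 UMIs, 40 with at most 1 GABA-gene UMI, 7 after thinning, 11 with the minimum of 300, 4343 with none and 35 without the members in cluster 0. Beside the 51 lower genes, these settings other than the last gave 26, 22, 4, 5 and 3901, and members of clusters 10 and 6 gave 29.

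The ratio of the rapid early genes (3.03) was 1.22 with at most 1 GABA-gene UMI and 1.64 in clusters 10 and 6, 2.01 with equal weight and 2.33 after thinning, and that of the 5 early genes (5.03) was 1.79 after thinning and 2.55 with at most 1 GABA-gene UMI. The ratio of the oligodendrocyte markers (5.67) was 1.205 without the member with the most of them. Calcr in US- (2.37) was 3.75 with at least 2 Skor2 UMIs, 1.30 after thinning and 0.967 (-0.048 on the log2 scale) without the member with 23 Calcr UMIs. Gldn in US+ (4.20) was 7.36 with at most 1 GABA-gene UMI and 6.59 in clusters 10 and 6. The rule found 46 members with at least 2 Skor2 UMIs and 5 after thinning. The cluster with the most members held 73.6% of them at resolution 0.5 and 71.4% with 15 principal components, beside 51.6%. For single genes, Qk turned to -0.54, -0.74, -1.18 and -0.11 on the log2 scale with at least 2 Skor2 UMIs, with at most 1 GABA-gene UMI, in clusters 10 and 6 and without cluster 0. Adarb2 turned to -0.15 in clusters 10 and 6, and Gm21798 and Klhl24 to 0.034 and 0.35 after thinning. Of 702 values of named genes over 11 alternatives, 8 reversed, 97 moved and 597 did neither. Thinning, higher minimums and sets of fewer members test fewer genes, and the other causes were not tested. The alternatives on clusters, glial UMIs and the members with the most Calcr or oligodendrocyte UMIs were chosen after seeing the data. No paired analysis was possible because each group is 1 library and no test was run. Depth limits single genes most, since 1 UMI was 1.56 CPM in US+ members and 2.09 in US- members.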
